A study of Mus musculus with 7 samples.

Results

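The genes described here encode chondroitin sulfate proteoglycans of the brain matrix, the tenascins they bind and the enzyme that starts their sugar chains. They were taken by symbol as a fixed list of 10 genes (Vcan, Ncan, Bcan, Acan, Cspg4, Cspg5, Ptprz1, Tnc, Tnr and Xylt1) among the 49315 gene identifiers of the count files, and each symbol matched a single identifier. The libraries came from 7 cultures of primary mouse oligodendroglia, 4 from wildtype controls (Klf13-wt) and 3 from Klf13 knockouts (Klf13-ko), each labelled a biological replicate. Precursor cells shaken off mixed glial cultures of newborn mouse brain and depleted of microglia were differentiated over 6 days in SATO medium in both groups. The knockout is constitutive, so that Klf13 was deleted in all cells of the animals and not only in oligodendroglia. Strain and number of animals behind each culture are not given in the sources used here.

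A chondroitin sulfate proteoglycan is a core protein that carries long sulfated sugar chains. The lecticans versican (Vcan), neurocan (Ncan), brevican (Bcan) and aggrecan (Acan) bind both hyaluronan and tenascins and so crosslink the matrix between neural cells. NG2 (Cspg4), neuroglycan C (Cspg5) and the receptor phosphatase PTPRZ1 span the membrane, and NG2 is a classical marker of oligodendrocyte precursor cells (OPCs). In lesioned brain such proteoglycans accumulate in scars, where they are known to hold back process outgrowth of oligodendrocytes and remyelination.

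Promoters are shown for Vcan and Ptprz1, the pair of genes that passed the test, and for Tnr, the most abundant of the 10, because KLF13 is a DNA-binding factor and the study searched regulatory regions for KLF motifs. Windows of 300 bases, 250 before and 50 after the start site, came from RefSeq on GRCm38.p6 and were given for 8 of the 10 genes, all but Cspg5 and Xylt1. The Vcan window is chr13:89742463-89742762 on the minus strand, the Ptprz1 window chr6:22875252-22875551 on the plus strand and the Tnr window chr1:159523519-159523818 on the plus strand. The start site of these windows lies 3, 0 and 0 bases from the 5′ end of the gene in the count files. Capitals mark matches, on either strand, to the 6 KLF hexamers that start with AC or CC, go on with A, G or T and end with CCC, and neighbouring matches can overlap or touch.
Vcan: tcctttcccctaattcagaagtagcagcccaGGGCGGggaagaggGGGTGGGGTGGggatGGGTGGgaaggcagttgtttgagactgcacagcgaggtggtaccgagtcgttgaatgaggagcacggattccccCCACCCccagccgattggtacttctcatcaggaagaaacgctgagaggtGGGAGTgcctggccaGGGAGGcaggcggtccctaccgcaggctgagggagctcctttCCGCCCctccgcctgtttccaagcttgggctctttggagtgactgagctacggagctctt
Ptprz1: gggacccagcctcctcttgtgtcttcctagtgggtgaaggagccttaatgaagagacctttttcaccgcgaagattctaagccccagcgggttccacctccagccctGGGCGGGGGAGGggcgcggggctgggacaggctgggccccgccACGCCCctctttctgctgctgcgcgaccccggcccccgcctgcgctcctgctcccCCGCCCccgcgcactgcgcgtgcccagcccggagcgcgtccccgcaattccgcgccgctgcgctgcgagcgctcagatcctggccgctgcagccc
Tnr: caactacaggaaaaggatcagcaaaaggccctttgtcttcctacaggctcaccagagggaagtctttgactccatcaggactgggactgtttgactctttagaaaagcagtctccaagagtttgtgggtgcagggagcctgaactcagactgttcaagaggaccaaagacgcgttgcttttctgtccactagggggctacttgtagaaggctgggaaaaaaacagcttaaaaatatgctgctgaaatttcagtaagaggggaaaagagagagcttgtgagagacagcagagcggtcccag

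The Vcan window held 8 matches, that of Ptprz1 held 4 and that of Tnr 0. Among the other windows, Acan had 9, Bcan 6, Cspg4 and Tnc 2 each in the first window listed, and Ncan 1. A match was thus found for 7 of 8 genes, against 76.3% of the 27025 genes with such a window and a median of 2 matches. These letters are frequent in promoters, and no binding was measured here.

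Together the 10 genes took up 0.570% to 0.616% of the counts in control libraries and 0.607% to 0.681% in knockout libraries, and of the single genes Vcan and Ptprz1 were called higher in the knockout. Normalized counts are counts divided by the library size after TMM scaling and multiplied by the mean of these sizes. Summed over the 10 genes, they were 272608, 261156, 253744 and 285641 in control replicates 1 to 4, compared with 268686, 279115 and 272139 in the knockout libraries, so that all knockout sums lay inside the range of the controls. All 10 genes were abundant, with 1071 to 149417 counts per library before normalization, and all were among the 18352 genes tested. With edgeR's quasi-likelihood test and a threshold of 0.05 on the adjusted p, 2 of the 10 genes were called, both higher in the knockout, which is 20% of the list, against 23.8% of all tested genes. Higher expression was called for 11.6% and lower expression for 12.2% of all tested genes. The test called 0 of the 10 lower, with 2 lower at an unadjusted p under 0.05, for which no share of all genes is given. DESeq2's Wald test called 2 of the 10 lower, next to 2668 of 21479 genes, and limma voom 0, next to 2231 of 18352. With the replicate number as a block, 1 of the 10 was called higher, as Ptprz1 lost its call, and 1 lower, Xylt1, next to 1741 higher and 2042 lower of the 18352 tested genes in that fit. Groups did not overlap for 5 of the 10, 3 of them higher and 2 lower in the knockout, against 36.2% of all tested genes. The median log2 fold change of the 10 was 0.01, next to -0.0037 over all tested genes, and 0 reached the log2 fold change of 1 that the study required as well, against 3.97% of all tested genes called higher and 3.08% called lower at that size. In bulk RNA, fewer cells of a type and less RNA per cell cannot be told apart.

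**Figure D1:**
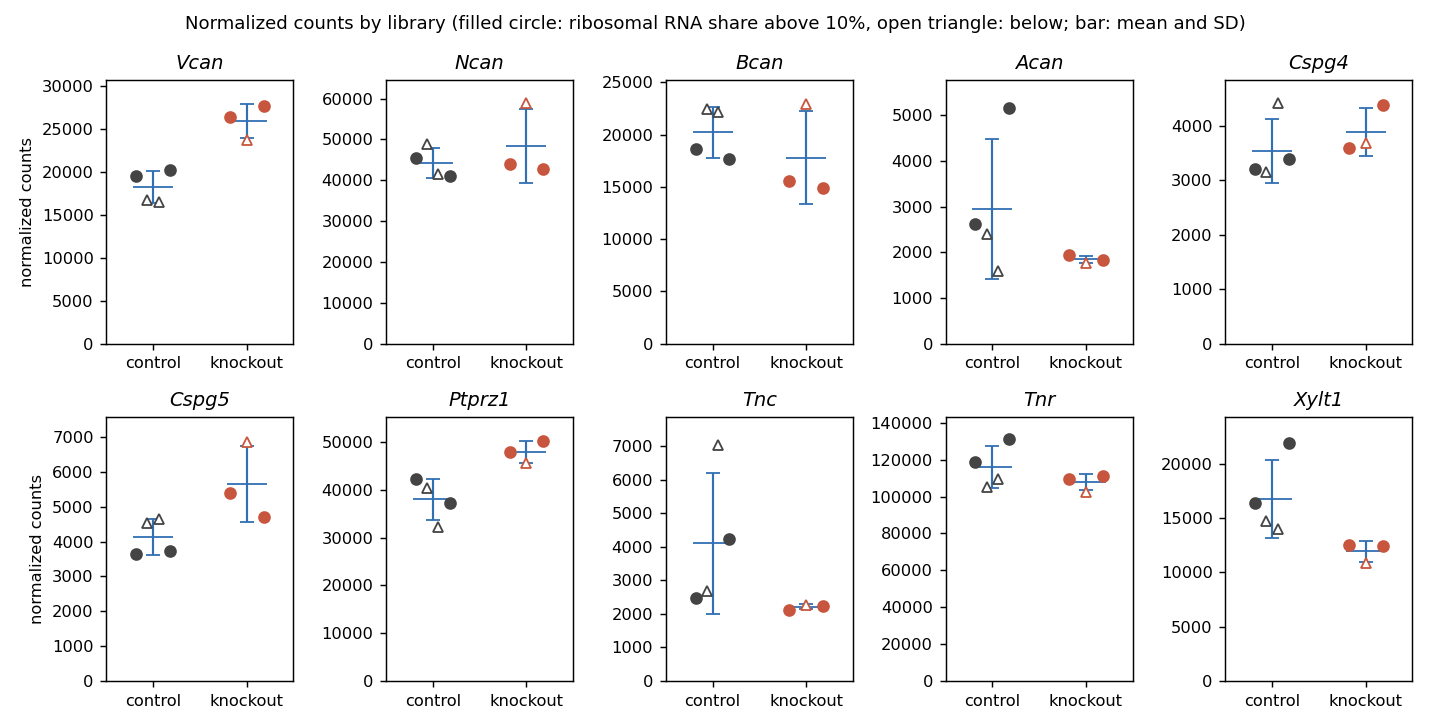
Normalized counts (y axis, starting at 0) of each of the 10 genes in the 4 control and 3 knockout libraries. Each symbol is a library, filled where more than 10% of its counts fell on genes that collect ribosomal RNA reads and open where fewer did, and the blue bar is the group mean with its SD. All knockout libraries lie above all controls for Vcan, Cspg5 and Ptprz1 and below them for Tnc and Xylt1.

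Klf13 itself, on chromosome 7 (GRCm38, positions 63886351 to 63938915), had 10915, 11769, 11999.5 and 10669.9 normalized counts in control libraries, compared with 802, 876 and 961 in the knockouts, as the labels state. Libraries held 24507471 to 59596479 counts on genes. Oligodendrocyte markers were present in all of them and were lower in the knockout for 8 of 8 genes, among them Mbp (log2 fold change of -1.78), whereas of 8 other OPC and early lineage genes only Cacng4 was called (0.44), with the replicate block also Lhfpl3 (0.28, adjusted p = 0.0466 by edgeR). Astrocyte markers were called higher for 7 of 8 genes, Gfap and Aqp4 included (0.66 and 1.19), and for 6 with the replicate block, where Slc1a2 lost its call (adjusted p = 0.0508 by edgeR). Neuron markers were called higher for 8 of 9 tested genes, with a median log2 fold change of 1.80 for the list. The most abundant, Map2 and Tubb3, had the smallest rises of the 8 (0.73 and 0.72), and Pvalb (-0.98) was not called. Over all tested genes, 11.6% were called higher and 12.2% lower. Summed normalized counts were 104076 to 142211 in controls and 199825 to 234542 in knockouts for the astrocyte list, and 22290.2 to 30585 and 45929 to 56181 for the neuron list, of which Slc17a7 was too low to be tested. Of 6 microglia and 4 endothelial markers no gene was called by edgeR, with 0 at an unadjusted p under 0.05, and the endothelial marker Cldn5 had 3 counts or fewer in every library. The share of counts on Gm42418, Gm23935 and Lars2, which collect reads of ribosomal RNA, was 14.1% and 15.0% in control replicates 1 and 4 and 17.02% and 17.95% in knockout replicates 1 and 3, but 6.03% to 7.56% in the other 3 libraries. Means within these 2 classes, of 2 controls and 2 knockouts with the higher share and of 2 controls and 1 knockout with the lower, are given for each of the 10 genes.

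Compared per length, Tnr, Ncan and Bcan dominated in both genotypes. Levels are given as RPKM, the counts per kilobase of exon relative to the scaled library size, using the gene lengths of the count files. In the controls the order was Tnr (205 ± 20.2, SD, n = 4), Ncan (140 ± 11.6), Bcan (113 ± 13.7), Ptprz1 (60.7 ± 6.93), Xylt1 (39.5 ± 8.45), Vcan (28.7 ± 2.95), Tnc (12.02 ± 6.17), Cspg5 (9.34 ± 1.19), Acan (8.97 ± 4.70) and Cspg4 (6.75 ± 1.13). Ranges over the control libraries overlapped between the neighbours Ptprz1 and Xylt1, Tnc and Cspg5, Cspg5 and Acan, and Acan and Cspg4, but not between the other neighbours. In the knockouts it was Tnr (191 ± 7.94, SD, n = 3), Ncan (153 ± 28.5), Bcan (99.6 ± 24.9), Ptprz1 (76.5 ± 3.75), Vcan (40.7 ± 3.11), Xylt1 (28.1 ± 2.22), Cspg5 (12.8 ± 2.48), Cspg4 (7.42 ± 0.833), Tnc (6.46 ± 0.217) and Acan (5.62 ± 0.251), and among neighbours only the ranges of Tnr and Ncan overlapped. The first 4 thus kept their places, Vcan stood above Xylt1, and Cspg5 and Cspg4 stood above Tnc and Acan. The ratio of Vcan to Xylt1, which does not depend on the scaling between libraries, was 0.796, 0.759, 0.788 and 0.614 in the controls, compared with 1.40, 1.46 and 1.49 in the knockouts. This pair was chosen after its values were seen, and the ratio is given without a test.

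**Figure D2:**
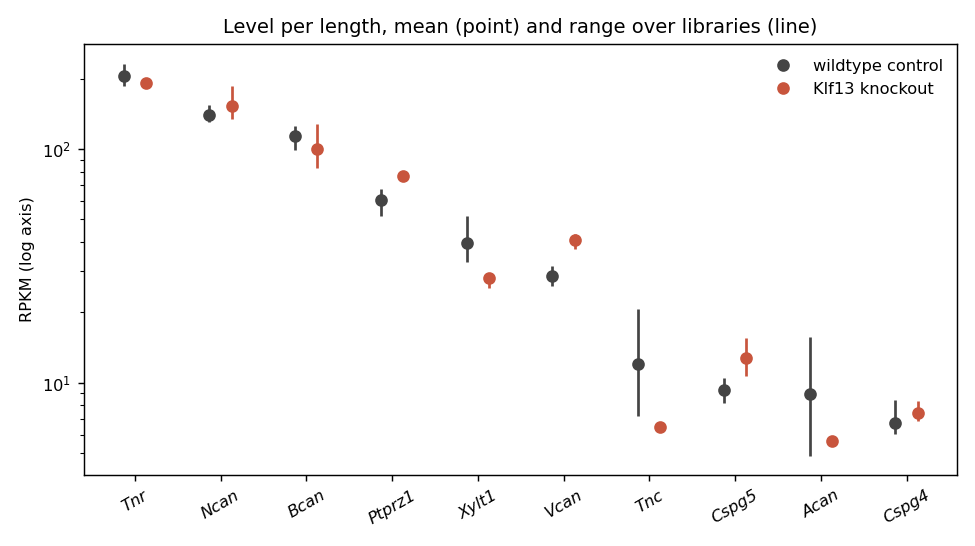
RPKM (log axis) of the 10 genes, ordered by their mean in the controls. Points are group means and lines run from the lowest to the highest library (n = 4 controls and 3 knockouts). Tnr, Ncan, Bcan and Ptprz1 lead in both genotypes, and Vcan and Xylt1 exchange places.

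Versican, the lectican of immature matrix that OPCs produce, was the gene with the firmest difference among the 10. Vcan (ENSMUSG00000021614, chromosome 13 from 89655312 to 89742509) had 19551, 16769, 16521 and 20160.4 normalized counts for control replicates 1 to 4, compared with 26338, 23733 and 27605 for knockout replicates 1 to 3. The lowest knockout library thus lay above the highest control. Means were 18250.3 ± 1873 (SD, n = 4) and 25892 ± 1974 (SD, n = 3), or 1.42-fold, with a log2 fold change of 0.50 (SE 0.09, adjusted p = 0.00991 by edgeR). Vcan was called under each of the 18 alternatives, with log2 fold changes of 0.42 to 0.58. Within the libraries of higher ribosomal RNA share its means were 19856 (n = 2) and 26971 (n = 2), and within the others 16645 (n = 2) and 23733 (n = 1). GENCODE M21 lists 8 protein-coding transcripts of Vcan, which counts per gene do not separate, so that splice forms with and without the sugar-bearing exons could not be compared.

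The other lecticans did not pass the test. Neurocan, a lectican of developing neurons and astrocytes, had the highest level per length of the 4. Ncan (chromosome 8 from 70093085 to 70120873) had 45403, 48939, 41572 and 41156 normalized counts in control libraries, compared with 43894, 58872 and 42661 in the knockouts. Knockout replicate 2 was the highest of all libraries, and the other 2 knockouts lay among the controls. The log2 fold change was 0.13, 95% CI -0.17 to 0.43, and it was -0.032 without knockout replicate 2. At the higher ribosomal RNA share the control and knockout means of Ncan were 43279.6 and 43277.5, and at the lower share 45256 and 58872.

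Brevican, the lectican of adult brain, also overlapped between the groups. Bcan (chromosome 3 from 87987531 to 88000230) had 18618, 22496, 22124 and 17631 normalized counts in control libraries, compared with 15585, 22909.5 and 14874 in the knockouts. The 3 libraries with the lower ribosomal RNA share, control replicates 2 and 3 and knockout replicate 2, were the 3 highest. Its log2 fold change was -0.18, 95% CI -0.58 to 0.21, and it was -0.04 when that share entered the fit as a covariate. With a knockout library left out, it was -0.08, -0.41 and -0.06 without replicates 1, 2 and 3 (adjusted p = 0.830, 0.0773 and 0.846 by edgeR). Within the class of higher share, the means were 18125 (n = 2 controls) and 15229 (n = 2 knockouts), and within the other 22310.3 (n = 2) and 22909.5 (n = 1).

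Aggrecan, the lectican of cartilage and of the nets around neurons, was the scarcest of the 4 per length. Acan (chromosome 7 from 79053483 to 79115099, 15.1 Mb from Klf13) had 2609.9, 2407, 1600.2 and 5163 normalized counts in control libraries, compared with 1934, 1771 and 1826 in the knockouts. Control replicate 4 stood far above the other controls, and the knockouts lay inside the range of the controls. The log2 fold change of -0.68 had a 95% CI of -1.52 to 0.16 (adjusted p = 0.221 by edgeR). Means of Acan at the higher ribosomal RNA share were 3887 in controls and 1880.0 in knockouts, without overlap, and at the lower share 2004 and 1771, with overlap. Leaving out control replicate 4 brought the log2 fold change to -0.24, and without control replicates 3 and 4 it was -0.45 (adjusted p = 0.0137 by edgeR).

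Among the membrane-bound proteoglycans, Ptprz1 was higher in the knockout and Cspg5 was close to the threshold. PTPRZ1, a receptor phosphatase whose secreted splice form is phosphacan, is abundant in OPCs and astrocytes. Ptprz1 (ENSMUSG00000068748, chromosome 6 from 22875502 to 23052916) had 42218, 40264, 32267 and 37181 normalized counts in control libraries, compared with 47927, 45507 and 50196 in the knockouts. All knockout libraries were above all controls, although the gap between the groups was smaller than the range of the controls. Means were 37983 ± 4338 (SD, n = 4) and 47877 ± 2345 (SD, n = 3), a log2 fold change of 0.33 (SE 0.10, adjusted p = 0.0455 by edgeR). With the replicate number as a block the call was lost (0.33, adjusted p = 0.101 by edgeR), and so it was under 8 other alternatives, while the log2 fold change stayed between 0.21 and 0.40. Libraries whose omission ended the call were control replicates 2 and 4 and each knockout, with adjusted p of 0.0614, 0.0803, 0.106, 0.0875 and 0.123 by edgeR. Means of Ptprz1 were 39699.8 in controls and 49062 in knockouts at the higher ribosomal RNA share, and 36265 and 45507 at the lower. The 3 protein-coding transcripts of Ptprz1, which include receptor and secreted forms, were counted together.

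Neuroglycan C, a transmembrane proteoglycan with an EGF-like domain, showed a difference of similar size with more spread. Cspg5 (chromosome 9 from 110243783 to 110262576) had 3642, 4536, 4646 and 3719.8 normalized counts in control libraries, compared with 5393, 6855 and 4709.8 in the knockouts. The lowest knockout exceeded the highest control by little. The log2 fold change was 0.45 (SE 0.15, 95% CI 0.11 to 0.79, adjusted p = 0.0618 by edgeR). Within the libraries of higher ribosomal RNA share the means were 3681 (n = 2) and 5051 (n = 2), and within the others 4591 (n = 2) and 6855 (n = 1). With that share as a covariate, chosen after seeing the data, Cspg5 was called (log2 fold change 0.59, adjusted p = 0.00192 by edgeR), as it was under 3 other alternatives, and without knockout replicate 2 it was 0.29 (adjusted p = 0.186 by edgeR).

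NG2, by which OPCs and pericytes are commonly stained, did not pass the test. Cspg4 (chromosome 9 from 56865033 to 56899870) had 3203, 3157, 4414 and 3383 normalized counts in control libraries, compared with 3595, 3680.2 and 4389.9 in the knockouts. Control replicate 3 was the highest of all libraries and stood apart from the other controls, which all lay below the knockouts. The log2 fold change was 0.14, 95% CI -0.18 to 0.45, and with a library left out it ranged from 0.05 without knockout replicate 3 (adjusted p = 0.868 by edgeR) to 0.26 without control replicate 3 (adjusted p = 0.0809 by edgeR). Its direction differed between the classes of ribosomal RNA share, with Cspg4 means of 3293 in controls and 3992 in knockouts at the higher share and of 3786 and 3680.2 at the lower.

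**Figure D3:**
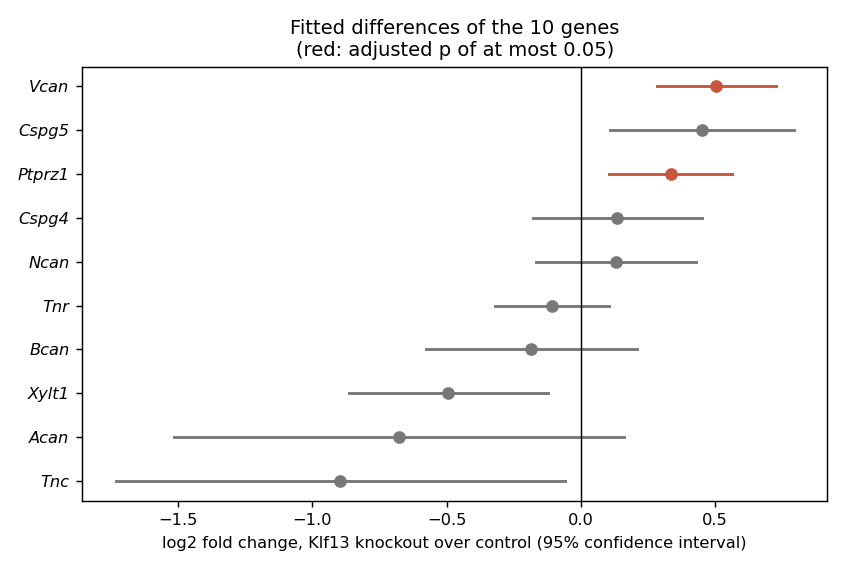
Log2 fold change (x axis, knockout over control) of the 10 genes with its 95% confidence interval, from edgeR's quasi-likelihood fit. Red marks an adjusted p of at most 0.05, reached by Vcan and Ptprz1, and the intervals of Acan and Tnc are the widest.

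Tenascin-C and tenascin-R, matrix glycoproteins of several arms that bind lecticans, differed in how much the control libraries varied. Tenascin-C is made by astrocytes, OPCs and fibroblasts of developing and injured tissue. Tnc (chromosome 4 from 63959785 to 64047015) had 2460.1, 2689, 7034 and 4237 normalized counts in control libraries, compared with 2121, 2257 and 2241 in the knockouts. Knockout libraries were close to each other and below all controls, and control replicates 3 and 4 were far above the other 2. The log2 fold change was -0.90 (SE 0.36, 95% CI -1.73 to -0.06, adjusted p = 0.115 by edgeR), while DESeq2's Wald test called Tnc (adjusted p = 0.0438 in DESeq2). Without control replicate 3 it was -0.51, and without control replicates 3 and 4 it was -0.23 (adjusted p of 0.119 and 0.0920 by edgeR). Means of Tnc were 3349 in controls and 2181 in knockouts at the higher ribosomal RNA share, and 4862 and 2257 at the lower. In the same libraries 8 fibroblast and mural cell markers summed to 23133, 17994, 76914 and 61669 normalized counts in control libraries, compared with 13270.0, 8022 and 18726 in the knockouts, with control replicates 3 and 4 highest here as well. Their most abundant genes were Fn1 and Col1a1, with log2 fold changes of -1.66 and -2.30, and 0 of the 8 were called by edgeR, 5 having an unadjusted p under 0.05, against 4 called with the replicate number as a block. Control replicate 3 also had the highest sum of the 6 microglia markers, 52762 against 9758 to 21835 in the other libraries. The part of these cells in the Tnc values was not tested.

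Tenascin-R, which oligodendroglial cells and some neurons make, was the most abundant of the 10 genes. Tnr (chromosome 1 from 159523769 to 159931729) had 118521, 105148, 109576 and 131086 normalized counts in control libraries, compared with 109379, 102705 and 111246 in the knockouts. The groups overlapped, and the log2 fold change was -0.11, 95% CI -0.32 to 0.10, next to -1.78 for the oligodendrocyte marker Mbp. At the higher ribosomal RNA share the Tnr means were 124803 in controls and 110312 in knockouts, and at the lower 107362 and 102705. The ratio of Tnr to Tnc, in RPKM, was 29.1, 23.6, 9.41 and 18.7 in the controls, compared with 31.1, 27.5 and 29.98 in the knockouts, so that control replicates 3 and 4 had the lowest ratios. Tnc shares 176 of its 7772 exon bases with the antisense gene 8030451A03Rik, and Tnr 443 of 12867 with the antisense gene Gm38039. Since the strand setting of the counting is not stated, reads from these stretches cannot be assigned. Both other tenascins were scarce: Tnxb had 17.4 ± 3.75 and 7.15 ± 3.91 normalized counts (log2 fold change -1.39, adjusted p = 0.0548 by edgeR), and Tnn had 16.9 ± 3.77 and 14.8 ± 4.54.

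**Figure D4:**
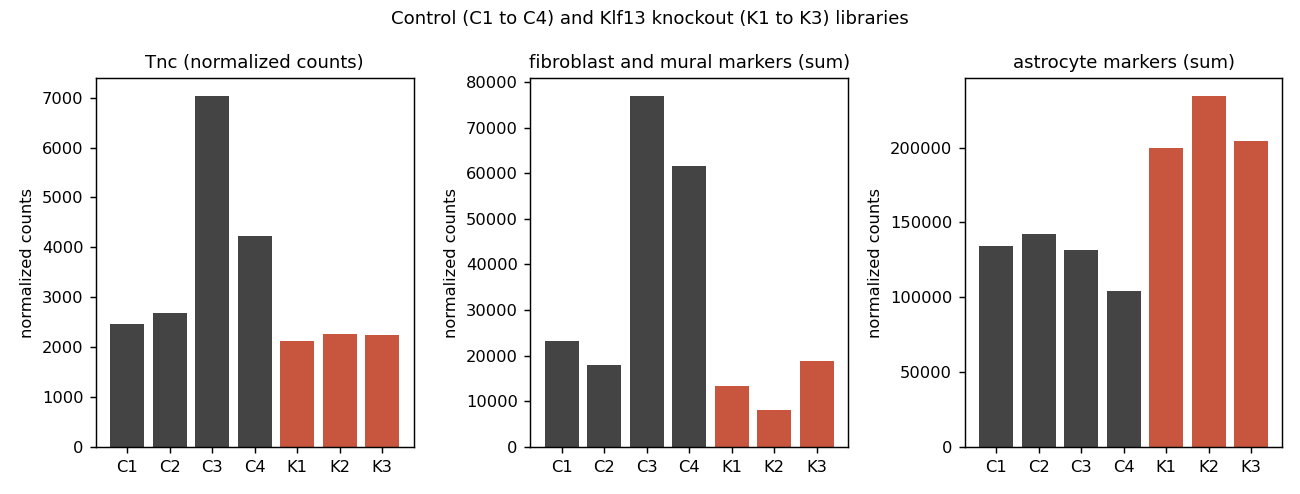
Normalized counts of Tnc and summed normalized counts of the fibroblast and mural cell markers and of the astrocyte markers in each library (bars from 0, C1 to C4 controls in grey, K1 to K3 knockouts in red). Tnc and the fibroblast sum are highest in control replicates 3 and 4, and the astrocyte sum is higher in all knockouts than in any control.

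Xylosyltransferase 1 adds the xylose on which chondroitin and heparan sulfate chains are built. Xylt1 (chromosome 7 from 117380979 to 117673580, 53.4 Mb from Klf13) had 16382, 14750.5, 13988 and 21923 normalized counts in control libraries, compared with 12521, 10826 and 12391 in the knockouts. All knockouts were below all controls, and control replicate 4 stood above the other controls as for Acan. The log2 fold change was -0.49 (SE 0.16, 95% CI -0.86 to -0.12, adjusted p = 0.0599 by edgeR). By DESeq2's Wald test Xylt1 was called lower (-0.51, adjusted p = 0.0246 in DESeq2), and so it was with the replicate number as a block (-0.34, adjusted p = 0.0349 by edgeR). Control replicate 4, which has no knockout of its number, does not enter the difference in the block fit. Without control replicate 4, the log2 fold change was -0.32 (adjusted p = 0.0595 by edgeR). Means within the class of higher ribosomal RNA share were 19152 (n = 2) and 12456 (n = 2), and within the other 14369 (n = 2) and 10826 (n = 1).

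Of 11 other genes that start the linker, extend it and polymerise the chains, 2 were called, both higher, against 23.8% of all tested genes called in either direction. They were Chsy1, a chondroitin synthase, which rose from 1072 ± 114 normalized counts (SD, n = 4) to 1468 ± 55.0 (SD, n = 3), and B4galt7, which adds the first galactose of the linker, with log2 fold changes of 0.45 and 0.38 (adjusted p = 0.0129 and 0.0207 by edgeR). B4galt7 lost its call with the replicate block (adjusted p = 0.0759 by edgeR). The most abundant of the list, the linker kinase Fam20b and the polymerising factor Chpf, had log2 fold changes of 0.16 and -0.02, and the median of the list was 0.06. Of 14 genes for sulfation and epimerisation, 13 were tested and 1 was called, Dsel, a dermatan sulfate epimerase, which fell from 639 ± 38.4 to 456 ± 47.5 normalized counts. The median of this list was -0.22, and Chst11, the main chondroitin sulfotransferase by counts, and Papss1, which makes the sulfate donor, had log2 fold changes of -0.19 and -0.04.

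Against the 23.8% of all tested genes that were called, other components that meet the proteoglycans in the matrix gave the following counts. Of 7 proteases that cleave lecticans, 2 were called lower and 1 higher. Adamts4 fell from 14702 ± 1907 normalized counts (SD, n = 4) to 3766 ± 406 (SD, n = 3), with 12894, 16750.5, 15889 and 13274 in the controls, compared with 3683, 4207 and 3408 in the knockouts, a log2 fold change of -1.96 (adjusted p = 0.000109 by edgeR). Adamts4 is itself known as a gene of mature oligodendrocytes. Adamts1 fell by 1.22 on the log2 scale, and Adamts15, at a much lower count of 47.4 ± 15.2 in the controls, rose to 141 ± 24.3. Of 8 hyaluronan and link protein genes, 2 were called, both lower. Hapln2, which encodes the link protein of the nodes of Ranvier, fell from 522 ± 150 to 62.0 ± 6.51 normalized counts (log2 fold change -3.08, adjusted p = 0.000349 by edgeR). The hyaluronan receptor gene Cd44 fell by 1.22 on the log2 scale, with control replicates 3 and 4 again the highest at 5165 and 3781 normalized counts, and the hyaluronan synthase gene Has2 had a log2 fold change of 0.21. The median of the list was 0.23, opposite in sign to both called genes.

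Of 9 ligands, partners and receptors of these proteoglycans, 2 were called higher and 1 lower, against 23.8% of all tested genes called. The chondroitin sulfate receptor gene Ptprf rose from 6050.5 ± 915 to 8575 ± 699 normalized counts, and Mdk, which encodes midkine, a ligand of PTPRZ1, from 50.03 ± 5.29 to 81.4 ± 10.03. With the replicate block, Mdk lost its call (adjusted p = 0.0721 by edgeR) and Ptn, which encodes the PTPRZ1 ligand pleiotrophin, gained one (log2 fold change 0.36, adjusted p = 0.0403 by edgeR). Contactin-1, a partner of PTPRZ1 and tenascin-R, was lower, with 26917 ± 926 and 22537 ± 1351 normalized counts of Cntn1 (log2 fold change -0.26, adjusted p = 0.0244 by edgeR). Ptprs, the other abundant receptor gene for these chains, had a log2 fold change of 0.09, and the median of the list was 0.36. Of 7 other core proteins with chondroitin or dermatan sulfate chains, 6 were tested, with 1 called higher and 1 lower, beside the same share of all tested genes. Spock3, a brain proteoglycan, rose from 47.5 ± 21.02 to 198 ± 78.2 normalized counts. Dcn, which encodes decorin, a product of fibroblasts, fell from 64.8 ± 41.3 to 7.20 ± 6.97. The groups overlapped for Dcn, with 11.1 in control replicate 2 and 15.2 in knockout replicate 3, and knockout replicate 1 had 2 counts before normalization. The more abundant relatives of Spock3 and Dcn, Bgn and Spock2, had log2 fold changes of -1.62 and 0.85 and were not called (adjusted p = 0.104 and 0.0880 by edgeR). With the replicate number as a block they were -0.99 and 0.64 and both were called (adjusted p = 0.0403 and 0.0198 by edgeR). The median of the list was -0.30.

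**Figure D5:**
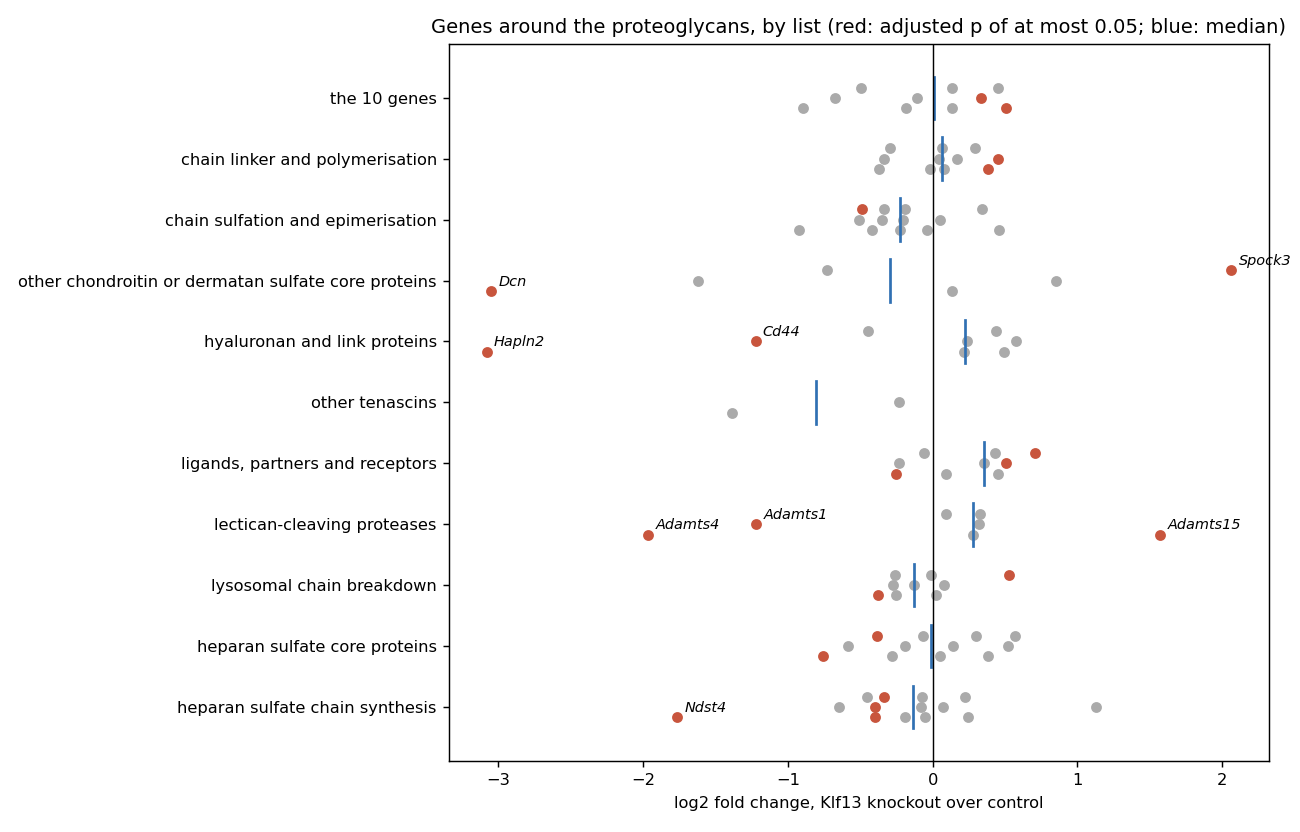
Log2 fold change (x axis, knockout over control) of the 10 genes and of the tested genes of 10 further lists. Each point is a gene, red at edgeR calls at an adjusted p up to 0.05, the blue line is the median of the list, and called genes beyond 1 log2 unit are named. The 10 genes lie within 1 log2 unit of 0, whereas Hapln2, Dcn, Adamts4, Adamts1, Cd44 and Ndst4 lie further below and Spock3 and Adamts15 further above.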

How the data were processed

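RNA-seq counts of 7 libraries (4 control, 3 Klf13 knockout) were analysed. Reads had been trimmed by the authors with Trimmomatic 0.36, mapped with STAR 2.5.2b and assigned to exons with Subread 1.5.2 where unique. The deposited values are raw counts, and the processing notes name GRCm38. Annotation release and strand setting are not given in the sources used here. All 10 genes had the same start and end in GENCODE M21.

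Filtering (filterByExpr), TMM scaling and the robust quasi-likelihood test with genotype as the only term used edgeR 4.0.16 in R 4.3.3, with Benjamini-Hochberg adjustment over 18352 genes and a threshold of 0.05. The fit was tested on simulated data. Alternatives were DESeq2 1.42.0, which the study used, limma voom 3.58.1 and the settings under the closing section. The 10 genes, 10 further lists and 7 cell marker lists were chosen with earlier results of these data known. Of each further list, the text names the 2 genes with the highest mean and up to 3 called genes with the smallest p, and of each marker list the 2 highest and those with 3 counts or fewer throughout. Cacng4, Pdgfra, Pvalb, Slc17a7, the antisense genes and genes named for the replicate block alone were added after their values were seen. Some genes under this rule are not reported here. P-values measure the spread between cultures.

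Deviations from the mean of the own group correlated at 0.11, 0.46 and 0.17 between control and knockout libraries of replicate numbers 1, 2 and 3. Between unlike numbers the correlations ran from -0.53 to 0.20, and 3 of these 9 exceeded 0.1. As all 3 of like number exceed 0.1, numbers were treated as possible pairs. The fit with the replicate block is given beside calls it changed, while the main fit has genotype as its only term. The labels state no pairing, and 0.20 was reached between control replicate 4 and knockout replicate 1. Control replicate 4 has no knockout of its number and so does not enter the genotype difference in the block fit. Same-group libraries differed by more than sampling noise (chi-square per degree of freedom 17.1 to 216).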

Additional observations from a re-analysis of the deposited data

How the results depend on the processing

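Of the 10 genes, 2 were called higher and 0 lower in edgeR's quasi-likelihood test, and 18 alternative fits and a fold change threshold were tried, of which the ribosomal RNA share as a covariate and the omission of control replicates 3 and 4 together were chosen after seeing the data. The number called higher rose to 3, with Cspg5, when the 100 highest genes were left out of the scaling. It fell to 1 with the replicate block and without control replicates 3 and 4, and to 0 with a log2 fold change of at least 1 required as well. The number called lower was 2 by DESeq2's Wald test, 2 without control replicates 3 and 4, 1 with the replicate block and 1 with the ribosomal RNA share. With each library left out in turn, 1 to 2 genes were called higher and 0 to 1 lower. Over all tested genes, 2122 were called higher and 2246 lower. These numbers were 850 to 1843 and 1254 to 2032 with each library left out, lowest without knockout replicate 2 for the higher genes and without knockout replicate 1 for the lower genes. They were 1177 and 1489 without control replicates 3 and 4, where fewer samples entered, and 729 and 565 with the fold change threshold. Ncan changed sign, to -0.032, without knockout replicate 2, its range with each library left out being -0.032 to 0.22, and the cause was not tested. The log2 fold changes of the other 9 genes kept their sign under all alternatives. Calls of Vcan, Ncan, Bcan, Cspg4 and Tnr were the same under all 18, Ptprz1 lost its call under 9, and Acan, Tnc, Cspg5 and Xylt1 gained a call under 1, 1, 4 and 5. The median log2 fold change of all genes moved by less than 0.1 under each of them. The replicate block changed the calls named in the text, and of the listed genes also those of Ptn, Sdc4, Hspg2, Lhfpl3, Slc1a2, Col1a1, Col1a2, Col3a1 and Fn1.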

Other observations

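Genes of heparan sulfate proteoglycans, which share the linker made by Xylt1, were looked at beside the 10 genes. Of 12 core protein genes 2 were called, both lower, against 23.8% of all tested genes called in either direction and 12.2% called lower. Sdc1, which encodes syndecan-1, fell from 1177 ± 231 normalized counts (SD, n = 4) to 697 ± 12.7 (SD, n = 3), and Gpc1, which encodes glypican-1, from 5773 ± 528 to 4429 ± 569, with log2 fold changes of -0.76 and -0.38. The most abundant, Sdc3 and Agrn, had log2 fold changes of -0.19 and -0.07, and the median of the list was -0.01. With the replicate number as a block, 1 was called higher (Sdc4) and 3 lower (Hspg2 beside these 2). Of 14 genes of heparan sulfate synthesis 4 were called, all lower, beside the same shares of all tested genes. They were the sulfotransferase genes Ndst1, which fell from 12289 ± 372 to 9341 ± 525 normalized counts, Ndst4, from 36.6 ± 11.7 to 10.95 ± 1.48, Hs2st1 and Hs6st1, with log2 fold changes of -0.40, -1.77, -0.34 and -0.40, while the median of the list was -0.14. The 6 called genes of both lists had adjusted p of 0.00432 to 0.0388 in edgeR.

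Of 9 genes that break the chains down in lysosomes, Hyal2 was higher and Arsb lower in the knockout, with log2 fold changes of 0.53 and -0.38, against 23.8% of all tested genes called. Hyal2, which encodes a hyaluronidase, had 893 ± 22.7 and 1288 ± 97.1 normalized counts, and Arsb, which encodes a sulfatase, 5011 ± 670 and 3857 ± 79.0. Ids, which encodes another sulfatase, had a log2 fold change of -0.13, and the median of the list was -0.13.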
